A study of Mus musculus with 12 samples.

Results

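The killer-molecule genes described here were *Fasl*, *Fas*, *Gzmb*, *Gzma*, *Prf1*, *Tnfsf10*, *Tnfrsf10b* and *Serpinb9*, taken by gene name from the rows of the scanner files that hold gene probes, with every probe of each gene. They are 8 of the 34821 gene names on the array and 8 of its 55681 probes, since each gene was read by 1 probe. Of these 8 genes, 5 were well above background on enough arrays to enter the test, which covered 24963 genes: *Fasl*, *Gzma*, *Prf1*, *Tnfrsf10b* and *Serpinb9*. The arrays profiled B cells from the spleens of female mice of the Balb/c strain, either control mice or allergic asthmatic mice labelled HDM, for house dust mite. All cells, in every group, had been cultured for 2 days with a CD40 agonist, with LPS present for the last 5 hours, and were then sorted by an IL-10 secretion assay. With 3 arrays each, the 4 groups are called IL-10+ control, IL-10+ HDM, IL-10- control and IL-10- HDM. No genetic alteration is named in the labels, the duration of HDM exposure and the age of the mice are not given in the sources used here, and it is not stated if the 3 samples in each group were taken from different animals or cultures. P-values therefore measure only the spread between these samples, which may be technical.

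Cytotoxic lymphocytes kill by releasing granules, in which perforin (*Prf1*) forms pores in the target membrane and granzymes (*Gzma*, *Gzmb*) act as serine proteases inside the target. They also kill through death ligands, Fas ligand (*Fasl*) and TRAIL (*Tnfsf10*), which engage the death receptors Fas (*Fas*) and TRAIL receptor (*Tnfrsf10b*) and activate caspases. *Serpinb9* encodes an intracellular inhibitor of granzyme B that protects the cell that makes it. T cells and natural killer (NK) cells are the usual carriers of this machinery, Fas ligand and granzyme B have been described in some regulatory B cells, and Fas is known to be induced on B cells activated through CD40.

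The readings rest on single probes, so 6 of the probes are shown: those of the 5 tested genes, and that of *Gzmb*, which gave no signal well above background on any array. Each probe has 60 bases, and its last 30 bases are printed as the array file gives them. Capitals mark AATAAA, the usual polyadenylation signal, searched on the strand of the probe only. It occurred in 3 of the 8 probes of these genes and in 10.1% of all 55681 probes.
Fasl: gagcaaacagattctaaggagtcatataaa
Gzma: gtctgatcacaAATAAAatcaacttgaatg
Gzmb: attaatagctccctacagaactttcataca
Prf1: tggcaactactgccacgaagcgtaaacatg
Tnfrsf10b: tggcagtgtaattacatacacaaAATAAAt
Serpinb9: tataagccaAATAAAccttttctaccccaa

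In the mm9 coordinates of the array file, the *Fasl* probe (NM_010177) lay at chr1:163711056-163711115 on the minus strand and the *Fas* probe (NM_007987) at chr19:34402164-34402223 on the plus strand. The *Gzma* probe (NM_010370) lay at chr13:113884035-113884094 and the *Gzmb* probe (NM_013542) at chr14:56877916-56877975, both on the minus strand. The *Prf1* probe (NM_011073) lay at chr10:60766941-60767000 and the *Tnfsf10* probe (NM_009425) at chr3:27238508-27238567, both on the plus strand. The *Tnfrsf10b* probe (NM_020275) lay at chr14:70184141-70184200 and the *Serpinb9* probe (NM_009256) at chr13:33109767-33109824, both on the plus strand. The file places the probes from base 818 (*Gzma*) to base 4864 (*Tnfsf10*) of their transcripts. No mm9 annotation was used here, so exon and UTR positions are not stated. The probe of *Prf1* had a GC content of 55%, that of *Gzma* and *Gzmb* 38.3% each, and those of the other 5 genes 35%, against a median of 43.3% over all probes.

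Between 47.7% and 62.4% of the gene spots of an array were well above background, with IL-10- HDM 3 lowest. No gene spot was saturated. The mean correlation of IL-10- HDM 3 with the other arrays, across tested genes, was 0.775, against 0.867 to 0.901 for the rest. The sort itself was checked on *Il10*, whose level was 6.42 to 7.57 on IL-10+ arrays and -5.43 to 1.12 on IL-10- arrays (limma, adjusted p = 0.008). *Cd9*, which encodes the surface protein named in the series title, stood at 0.686 to 2.70 on IL-10+ arrays and at -4.70 to -2.04 on IL-10- arrays (limma, adjusted p = 0.0129). Both are levels as used below: the processed signal was divided by the 75th percentile of its array and put on the log2 scale, so that 0 means a signal equal to that percentile. Of 12 B cell identity genes, 10 to 12 were well above background on every array.

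None of the 5 tested killer-molecule genes was called, that is, had an adjusted p under 0.05, in any of the 6 comparisons, and an unadjusted p under 0.05 in limma was reached by *Serpinb9* in the averaged contrast and by *Prf1* in control mice. *Serpinb9* and *Prf1* had lower means in IL-10+ than in IL-10- cells, and *Fasl*, *Tnfrsf10b* and *Gzma* had higher means. *Gzmb* was not well above background on any array, and *Fas* and *Tnfsf10* were so on 1 array each. The background of calls was low: 0.268% of the 24963 tested genes were called between IL-10+ and IL-10- cells averaged over control and HDM mice, 0.0160% in control mice and 0.168% in HDM mice. Between HDM and control mice it was 0.00401% in IL-10+ cells and 0.0481% in IL-10- cells. For the difference of the sort contrast between HDM and control mice it was 0.0120%.

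**Figure D1:**
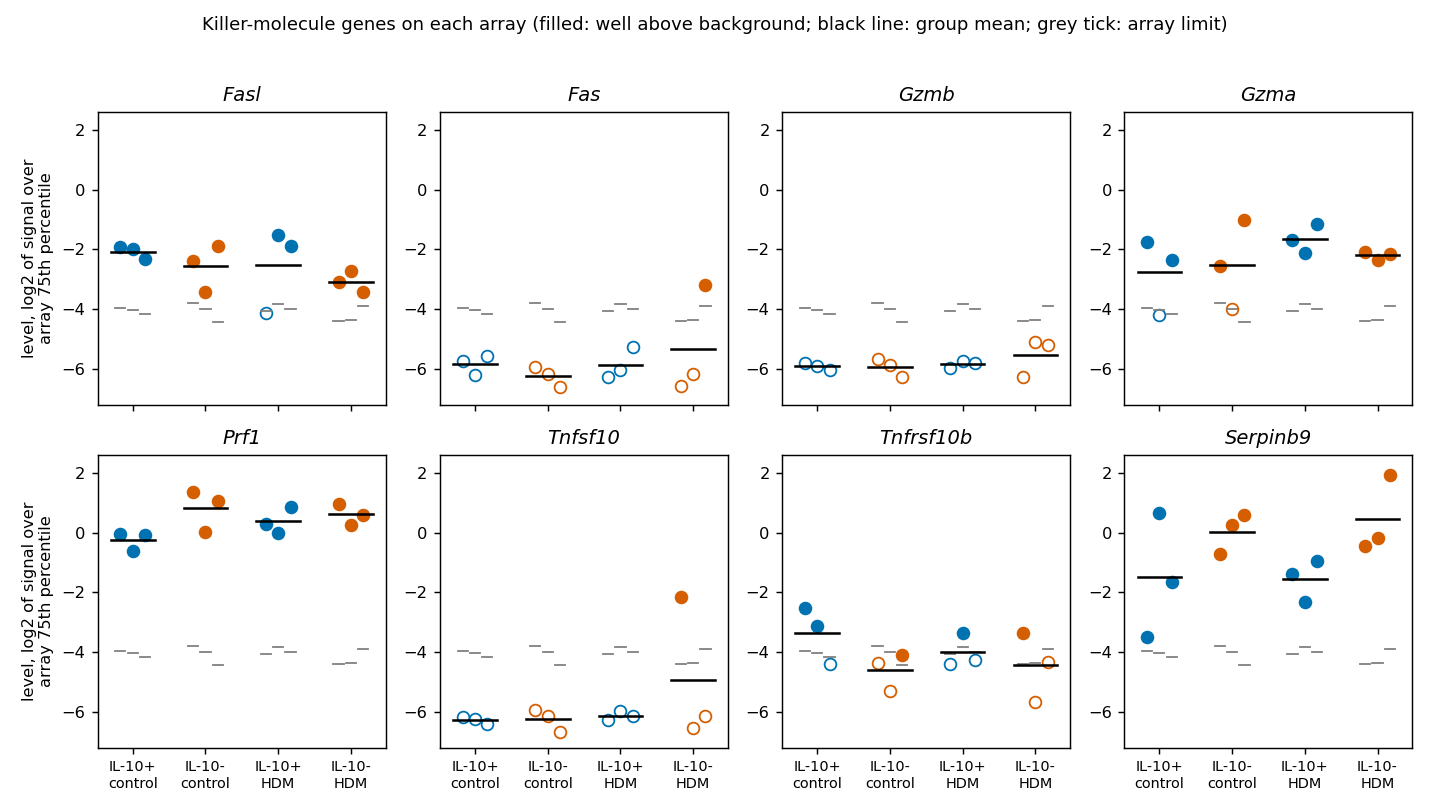
Level of each killer-molecule gene (y axis, log2 of signal divided by the 75th percentile of its array) on the 3 arrays of each group (x axis); blue points are IL-10+ and orange points IL-10-, filled points were well above background, open points were not, black lines are group means, and grey ticks mark the lowest level well above background on that array. Gzmb has no filled point, Fas and Tnfsf10 have 1 each, and every Prf1 and Serpinb9 point is filled.

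Among the ligands, *Fasl*, which encodes Fas ligand, was well above background on 11 of 12 arrays. Its level was -1.92, -2.00 and -2.32 in IL-10+ control cells, and -4.15, -1.52 and -1.87 in IL-10+ HDM cells. It was -2.38, -3.42 and -1.90 in IL-10- control cells, and -3.08, -2.74 and -3.42 in IL-10- HDM cells. The reading of -4.15, on IL-10+ HDM 1, was the lowest of all and the only one not well above background. The group means ran in the order IL-10+ control (-2.08 ± 0.21, SD, n = 3), IL-10+ HDM (-2.51 ± 1.43), IL-10- control (-2.56 ± 0.77) and IL-10- HDM (-3.08 ± 0.34). The arrays of each neighbouring pair of groups in that order overlapped, while those of the first and the last did not.

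Averaged over control and HDM mice, *Fasl* was 1.44-fold higher in IL-10+ cells, a log2 difference of 0.53 ± 0.46 (SE) with a 95% confidence interval of -0.50 to 1.55 (limma, adjusted p = 0.767). The exact two-sided permutation p was 0.245, over 400 arrangements whose smallest possible p is 0.005. The difference was 0.48 in control mice (95% interval -0.97 to 1.94, limma, adjusted p = 1) and 0.57 in HDM mice (-0.89 to 2.02, limma, adjusted p = 0.707). Leaving out IL-10+ HDM 1, the array with *Fasl* not well above background, gave an averaged difference of 0.93 (limma, adjusted p = 0.497), and leaving out IL-10+ HDM 2 gave 0.28. HDM against control was -0.43 in IL-10+ cells (limma, adjusted p = 1) and -0.51 in IL-10- cells (limma, adjusted p = 0.806).

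*Tnfsf10*, which encodes TRAIL, had a signal on a single array. Its level was -6.17, -6.24 and -6.40 in IL-10+ control cells and lay between -6.28 and -5.97 in IL-10+ HDM cells. It lay between -6.67 and -5.95 in IL-10- control cells. In IL-10- HDM cells it was -2.15 on array 1, well above background, and between -6.55 and -6.12 on the other two arrays. No group had more than 1 array with a measured level, so no fold is given. The exact two-sided permutation p for the averaged sort contrast was 0.7, but nearly all readings it compares are at the floor. It cannot say whether *Tnfsf10* differs between the fractions.

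Of the receptors, *Fas* was read at 2 spots of 1 probe. Its level, the mean of both spots, was between -6.19 and -5.56 in IL-10+ control cells, between -6.27 and -5.26 in IL-10+ HDM cells and between -6.60 and -5.93 in IL-10- control cells. None of these readings was well above background. In IL-10- HDM cells it was -6.58, -6.18 and -3.20, and on the array at -3.20, IL-10- HDM 3, both spots were well above background (-3.32 and -3.08). That array was also the one with the fewest spots above background. The raw mean signal of the *Fas* spots ran from 22.2 to 60.3, with a local background of 18 to 28. The exact two-sided permutation p for the averaged sort contrast was 0.97. With 1 array measured, it cannot say whether *Fas* differs between the fractions.

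*Tnfrsf10b*, which encodes the TRAIL death receptor, was well above background on 5 of 12 arrays: IL-10+ control 1 and 2, IL-10+ HDM 2, IL-10- control 3 and IL-10- HDM 1. Its level was -2.54, -3.13 and -4.39 in IL-10+ control cells, and -4.39, -3.35 and -4.27 in IL-10+ HDM cells. It was -4.37, -5.31 and -4.09 in IL-10- control cells, and -3.37, -5.65 and -4.31 in IL-10- HDM cells. The highest readings were in IL-10+ control cells and the lowest in the IL-10- groups, but the arrays of every pair of neighbouring groups overlapped. The order of the means was IL-10+ control (-3.35 ± 0.95, SD, n = 3), IL-10+ HDM (-4.00 ± 0.57), IL-10- HDM (-4.45 ± 1.15) and IL-10- control (-4.59 ± 0.64). Averaged over control and HDM mice, the log2 difference was 0.84 ± 0.47 (SE, 95% interval -0.21 to 1.89, limma, adjusted p = 0.634), with an exact two-sided permutation p of 0.135. With levels below an array's background limit set to that limit, the difference was 0.38 (limma, adjusted p = 0.755). In control mice alone it was 1.24 ± 0.67 (SE, limma, adjusted p = 1), and in HDM mice 0.44 ± 0.67 (SE, limma, adjusted p = 0.78).

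Among the granule effectors, *Prf1*, which encodes perforin, was well above background on all 12 arrays. Its level was -0.05, -0.61 and -0.07 in IL-10+ control cells, and 0.28, -0.01 and 0.85 in IL-10+ HDM cells. It was 1.37, 0.03 and 1.05 in IL-10- control cells, and 0.98, 0.26 and 0.60 in IL-10- HDM cells. In control mice all 3 IL-10- arrays lay above all 3 IL-10+ arrays, by as little as the gap between 0.03 and -0.05, while in HDM mice the arrays of both fractions overlapped. The order of the means was IL-10- control (0.82 ± 0.70, SD, n = 3), IL-10- HDM (0.61 ± 0.36), IL-10+ HDM (0.38 ± 0.44) and IL-10+ control (-0.24 ± 0.32). Only the last 2 neighbours in that order, both IL-10+, did not overlap.

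The averaged log2 difference of *Prf1*, IL-10+ minus IL-10-, was -0.65 ± 0.30 (SE, 95% interval -1.31 to 0.02), 1.57-fold lower in IL-10+ cells (limma, adjusted p = 0.557). The exact two-sided permutation p was 0.055. In control mice the difference was -1.06 ± 0.42 (SE, 95% interval -2.00 to -0.12), with an unadjusted p of 0.031 in limma and an adjusted p of 1. Of all tested genes, 4.06% had an unadjusted p under 0.05 in that comparison, and the arrays of both fractions did not overlap for 9.45%. In HDM mice the difference was -0.24 ± 0.42 (SE, limma, adjusted p = 0.822). The difference between these contrasts was 0.83 ± 0.60 (SE, 95% interval -0.51 to 2.16, limma, adjusted p = 0.777). *Prf1* was 1.54-fold higher in HDM than in control mice among IL-10+ cells, with no overlap between the arrays (log2 difference 0.62 ± 0.42, SE, limma, adjusted p = 1), where 9.61% of tested genes did not overlap.

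*Gzma*, which encodes granzyme A, was well above background on 10 of 12 arrays. Its level was -1.75, -4.20 and -2.36 in IL-10+ control cells, and -1.69, -2.11 and -1.15 in IL-10+ HDM cells. It was -2.56, -3.98 and -1.005 in IL-10- control cells, and -2.07, -2.37 and -2.15 in IL-10- HDM cells. Both readings not well above background, -4.20 and -3.98, came from array 2 of a control group, and the highest, -1.005, came from IL-10- control 3. The averaged sort difference was 0.15 ± 0.55 (SE, 95% interval -1.07 to 1.36, limma, adjusted p = 0.953), and its sign turned when arrays were scaled by their median (-0.18) and after normexp and quantile normalization (-0.06). The exact two-sided permutation p was 0.785. Among IL-10+ cells *Gzma* stood 2.18-fold higher in HDM than in control mice (log2 difference 1.12 ± 0.77, SE, limma, adjusted p = 1), with overlapping arrays, and without IL-10+ control 2 the difference was 0.41.

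*Gzmb*, which encodes granzyme B, had no array with a signal well above background. Its level was between -6.04 and -5.79 in IL-10+ control cells and between -5.97 and -5.72 in IL-10+ HDM cells. It was between -6.28 and -5.67 in IL-10- control cells, and -6.28, -5.12 and -5.19 in IL-10- HDM cells. The raw mean signal of the spot was 26.8 to 36.7, over a local background of 21 to 26. These readings give only an upper bound, since the lowest level well above background on an array was -4.43 to -3.81. No fold is given. The exact two-sided permutation p was 0.525, but it compares readings at the floor and cannot say whether *Gzmb* differs between the fractions.

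The inhibitor *Serpinb9* was well above background on all 12 arrays and ranged from -3.50 to 1.94. Its level was -3.50, 0.65 and -1.65 in IL-10+ control cells, and -1.40, -2.33 and -0.95 in IL-10+ HDM cells. It was -0.72, 0.25 and 0.58 in IL-10- control cells, and -0.43, -0.17 and 1.94 in IL-10- HDM cells. All 6 IL-10- readings were above 5 of the 6 IL-10+ readings, and IL-10+ control 2, at 0.65, was the exception. In HDM mice the fractions did not overlap. The order of the means was IL-10- HDM (0.45 ± 1.30, SD, n = 3), IL-10- control (0.04 ± 0.68), IL-10+ control (-1.50 ± 2.08) and IL-10+ HDM (-1.56 ± 0.70).

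Averaged over control and HDM mice, *Serpinb9* was 3.41-fold lower in IL-10+ cells, a log2 difference of -1.77 ± 0.70 (SE, 95% interval -3.33 to -0.22). Its unadjusted p in limma was 0.0295 and its adjusted p 0.474, and the exact two-sided permutation p was 0.04 before any adjustment. In that comparison 9.17% of tested genes had an unadjusted p under 0.05, 3.57% with a lower level in IL-10+ cells. The difference was -1.54 ± 0.99 (SE) in control mice (limma, adjusted p = 1) and -2.01 ± 0.99 (SE) in HDM mice (limma, adjusted p = 0.405), where the arrays of 22.6% of all tested genes did not overlap. The averaged value was -2.31 without IL-10+ control 2 (limma, adjusted p = 0.184) and -1.27 without IL-10+ control 1 (limma, adjusted p = 0.735). The highest readings of *Serpinb9*, 1.94 and 0.65, came from IL-10- HDM 3 and IL-10+ control 2, on which 47.7% and 51.6% of spots were well above background, the lowest shares of the 12 arrays. The next highest reading, 0.58, came from IL-10- control 3, with 62.4%, the highest share. The lowest reading, -3.50, came from IL-10+ control 1, with 60.9%. The part of this share in the *Serpinb9* readings was not tested. HDM minus control for *Serpinb9* was -0.06 (95% interval -2.26 to 2.14, limma, adjusted p = 1) in IL-10+ cells and 0.41 (-1.79 to 2.61, limma, adjusted p = 0.907) in IL-10- cells.

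**Figure D2:**
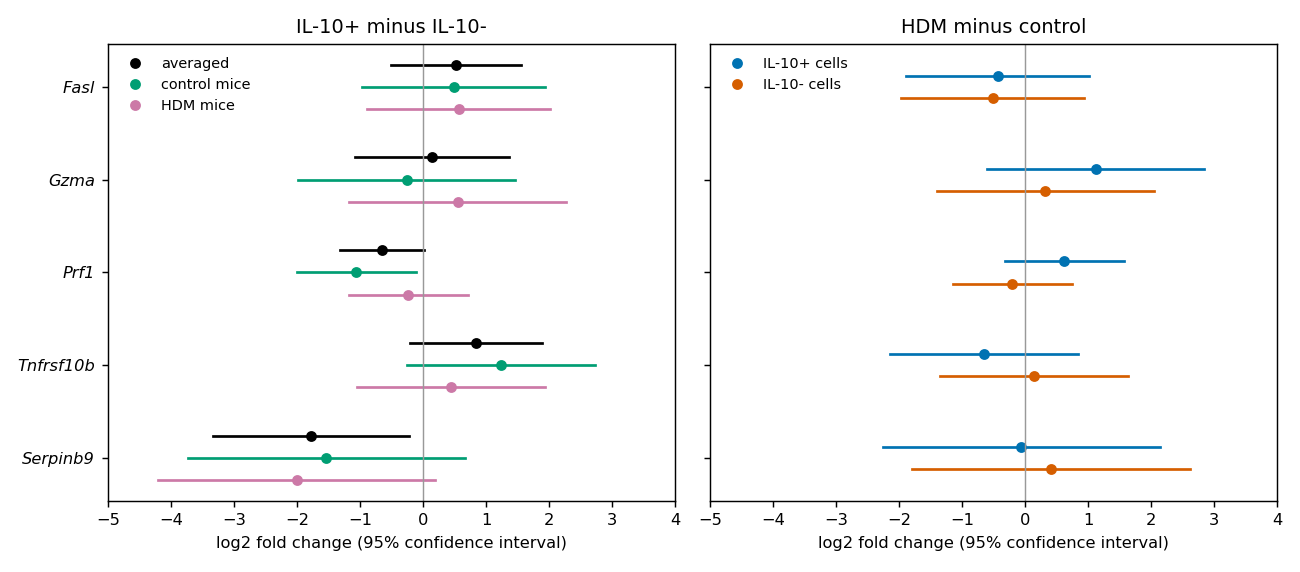
Log2 fold change (x axis) of the 5 tested killer-molecule genes (y axis) with its 95% confidence interval from limma; the left panel gives IL-10+ minus IL-10- averaged and within control and HDM mice, the right panel HDM minus control within each fraction. Intervals that leave out 0 are those of Serpinb9 averaged (-3.33 to -0.22) and of Prf1 in control mice (-2.00 to -0.12), before adjustment over all genes.

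The slide on which an array was hybridised is named in the file headers, and it bears on the contrasts that include IL-10- cells. All 6 IL-10+ arrays and IL-10- control 1 and 2 were on slide 1, and IL-10- control 3 and the 3 IL-10- HDM arrays were on slide 2. In HDM mice the slide and the sort therefore cannot be told apart. On slide 1 alone, the control sort difference was -0.94 for *Prf1* (limma, adjusted p = 0.836), -1.26 for *Serpinb9* (limma, adjusted p = 0.951), 1.49 for *Tnfrsf10b* (limma, adjusted p = 0.759), 0.81 for *Fasl* (limma, adjusted p = 0.956) and 0.50 for *Gzma* (limma, adjusted p = 0.983), the last with the opposite sign to that from both slides. With slide as a block, the averaged difference was -0.42 ± 0.54 (SE) for *Prf1*, -1.23 ± 1.26 (SE) for *Serpinb9*, 1.34 ± 0.84 (SE) for *Tnfrsf10b*, 1.19 ± 0.80 (SE) for *Fasl* and 1.65 ± 0.79 (SE) for *Gzma*, with adjusted p in limma from 0.739 to 0.9. That block rests on the IL-10- control group, the only one on both slides.

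The wider families were described with lists of related genes. Of 10 granzyme genes, 1 was well above background on all 12 arrays (*Gzmk*, chosen after its values were seen), 3 on none, 3 on 1 or 2 arrays and 3 on 3 to 11. *Gzme*, a granzyme of cytotoxic lymphocytes, had a log2 sort difference of 1.13 ± 0.52 (SE, limma, adjusted p = 0.555). Its readings on IL-10- control 1 (-4.30) and IL-10- HDM 3 (-6.00) were not well above background. *Vamp8*, a vesicle fusion protein of granule release, had a difference of 1.53 ± 0.48 (SE, limma, adjusted p = 0.332). That average of *Vamp8* joined -0.28 ± 0.68 (SE) in control mice (limma, adjusted p = 1) and 3.33 ± 0.68 (SE) in HDM mice (limma, adjusted p = 0.109). The difference between these *Vamp8* contrasts was 3.61 ± 0.96 (SE), with an unadjusted p of 0.00362 in limma and an adjusted p of 0.683. *Vamp8* was well above background on every HDM array, but on 1 of 3 IL-10+ control and 2 of 3 IL-10- control arrays. Its control contrast, and so the difference of contrasts, leans on readings near the floor. In the whole list of granule cytotoxicity and granule release, 18 of 24 genes were tested and none was called. An unadjusted p under 0.05 in limma was reached by 1, against 9.17% of all tested genes. In this list 12 were higher in IL-10+ cells and 6 were lower, while 52.7% of all tested genes were higher. The median difference of the list was 0.41, against 0.04 for all tested genes. Its median was 0.08 when arrays were scaled by their median, a scaling that moves the averaged difference of every gene by -0.33 and, in HDM mice, by -0.80.

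The list of granzyme inhibitors and related serpins had 8 of 12 genes tested, 2 higher and 6 lower, none called, with a median of -0.70. Besides *Serpinb9*, *Serpinb1a* had an unadjusted p under 0.05 in limma with a lower level in IL-10+ cells, against 3.57% of all tested genes. *Serpinb1a*, which encodes an inhibitor of neutrophil serine proteases, had a log2 difference of -1.99 ± 0.68 (SE, limma, adjusted p = 0.387). Its level was -0.06, -4.44 and -1.49 in IL-10+ control cells, -1.13, -1.45 and -0.27 in IL-10+ HDM cells, 0.94, 1.43 and -0.44 in IL-10- control cells, and 0.82, 0.52 and -0.16 in IL-10- HDM cells. The reading of -4.44, on IL-10+ control 2, was not well above background, and that array held the highest IL-10+ reading of *Serpinb9*. Whether the *Serpinb9* probe also binds transcripts of close paralogs was not tested. Of these, *Serpinb9d* and *Serpinb9g* were well above background on no array, *Serpinb9c* on 1, *Serpinb9b* and *Serpinb9e* on 4 each, and *Serpinb9f* on 9. The arrays of *Serpinb9b* were 2 of each IL-10- group, and those of *Serpinb9e* were 2 IL-10- control and 2 IL-10+ HDM arrays. *Serpinb9f* was so on 2 or 3 arrays of every group. These paralogs were chosen after their values were seen.

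**Figure D3:**
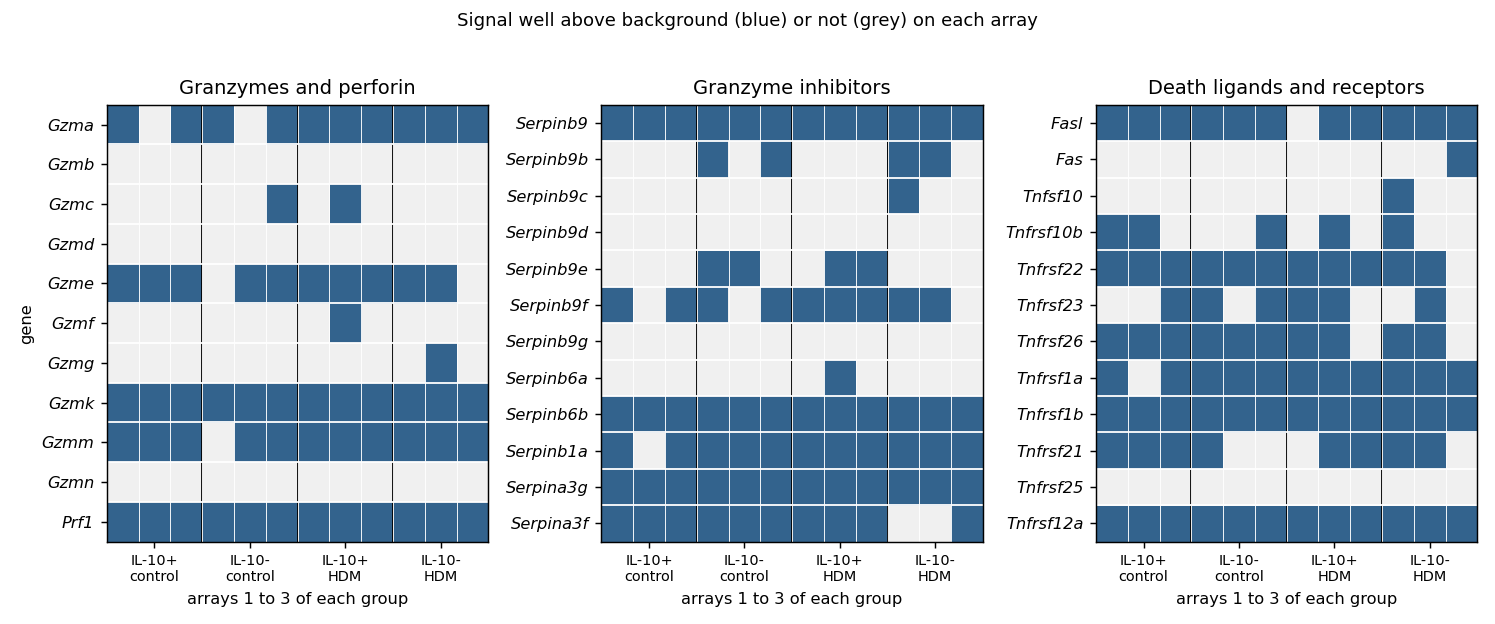
Detection of 11 granzyme and perforin genes, 12 granzyme inhibitors and related serpins, and 12 death ligands and receptors (rows) on the 12 arrays (columns, 3 for each group); blue marks a signal well above background and grey a signal that is not. Prf1, Gzmk and Serpinb9 are among the genes shown that are blue on all 12 arrays, and Gzmb is among those blue on none.

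Of 20 death ligands and death receptors, 14 were tested, 10 were higher in IL-10+ cells and 4 lower, and none was called. Among these genes, 0 had an unadjusted p under 0.05 in limma, against 9.17% of all tested genes. Their median was 0.47, and 0.14 when arrays were scaled by their median. In control mice 6 were higher and 8 lower, with a median of -0.30. In HDM mice, where slide and sort cannot be told apart, 11 were higher and 3 lower, with a median of 0.79. *Lta*, which encodes the cytokine lymphotoxin alpha, had a log2 difference of -0.97 ± 0.44 (SE, limma, adjusted p = 0.547), and *Tnfrsf21*, a death-domain receptor, one of 2.20 ± 1.15 (SE, limma, adjusted p = 0.606). *Tnfrsf21* was not well above background on IL-10+ HDM 1 (-4.65), IL-10- control 2 (-6.18), IL-10- control 3 (-4.57) and IL-10- HDM 3 (-6.07), so its difference leans on readings near the floor. Of 24 genes of death receptor signalling and executioner caspases, 22 were tested, 17 were higher and 5 lower, none was called, and 3 had an unadjusted p under 0.05, all higher in IL-10+ cells, against 5.59% of all tested genes in that direction. The median of that list was 0.29, and -0.04 when arrays were scaled by their median. *Fadd*, the adaptor that joins Fas and the TRAIL receptor to caspase 8, had a log2 difference of 1.27 ± 0.36 (SE, limma, adjusted p = 0.263). *Faim3*, which encodes the IgM Fc receptor first described as an inhibitor of Fas-driven apoptosis, had one of 1.96 ± 0.56 (SE, limma, adjusted p = 0.272).

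Among 21 transcription factors and receptors linked to killer genes, 18 were tested, 11 were higher and 7 lower, and none was called. In each direction 3 had an unadjusted p under 0.05 in limma, against 5.59% of all tested genes higher and 3.57% lower. The median of the list was 0.16 (-0.17 with arrays scaled by their median). *Il21r*, the receptor of interleukin-21, a cytokine known to induce granzyme B in B cells, had a log2 difference of -1.28 ± 0.22 (SE, limma, adjusted p = 0.0563). Its level was 1.77, 1.87 and 1.53 in IL-10+ control cells and 2.36, 2.54 and 1.80 in IL-10+ HDM cells. It was 2.71, 2.46 and 2.12 in IL-10- control cells and 4.28, 3.89 and 4.08 in IL-10- HDM cells. The IL-10- HDM arrays were the highest, and all of them were on slide 2. IL-10- control 3, also on slide 2, read 2.12, below the 2.71 and 2.46 of IL-10- control 1 and 2 on slide 1. The part of the slide in these readings was not tested. *Il2rb*, a shared chain of the interleukin-2 and interleukin-15 receptors, had a difference of 2.62 ± 0.46 (SE, limma, adjusted p = 0.0563). Its level was 1.13, 1.45 and 1.496 in IL-10+ control cells, -1.03, 1.55 and 0.02 in IL-10+ HDM cells, -0.75, -2.55 and -1.70 in IL-10- control cells, and -2.52, -1.81 and -1.75 in IL-10- HDM cells. IL-10+ HDM 1, at -1.03, lay within the IL-10- readings, and the other 5 IL-10+ arrays lay above them.

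**Figure D4:**
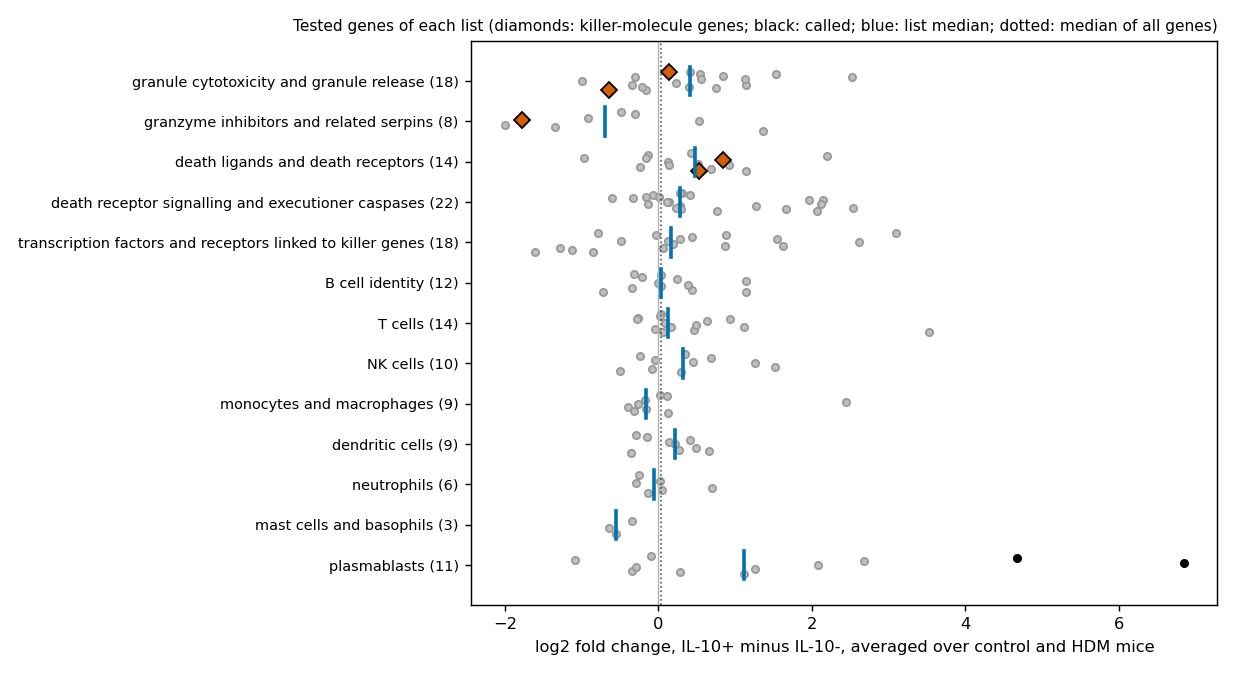
Log2 fold change, IL-10+ minus IL-10- averaged over control and HDM mice (x axis), of each tested gene (points) in the lists (y axis, with the number of genes tested); diamonds are killer-molecule genes, black points were called, blue bars are list medians and the dotted line is the median of all tested genes (0.04). The only called points are the 2 of the plasmablast list.

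Markers of other cells that carry killer molecules were read on the same arrays. Of 18 T cell markers, 11 to 15 were well above background on an array: 13 to 15 on IL-10+ arrays and 11 to 13 on IL-10- arrays. Over the 12 arrays, 8 of the 18 were well above background on all, 6 on 3 to 11, 3 on 1 or 2, and 1 on none. Among genes of that list chosen after their values were seen, *Cd3e*, a chain of the T cell receptor complex, *Cd4* and *Lck* were so on all 12, *Cd3d* on 2 and *Bcl11b*, a T lineage transcription factor, on none. The summed linear level of the T cell list was 8.20 to 12.1 in IL-10+ control, 10.1 to 11.6 in IL-10+ HDM, 11.03 to 12.6 in IL-10- control and 6.78 to 14.9 in IL-10- HDM cells. Of 15 NK cell markers, 6 to 10 were well above background on an array: 5 of the list on all 12 arrays, 5 on 3 to 11, 2 on 1 or 2, and 3 on none. *Ncr1*, *Klra1*, *Cd160*, *Cd244* and *Fcer1g* were the 5 on all arrays, and *Klrk1*, *Klrd1* and *Klra4* the 3 on none, all chosen after their values were seen except *Fcer1g*. The summed level of the NK list was 5.84 to 8.01 in IL-10+ control, 6.04 to 9.77 in IL-10+ HDM, 5.13 to 7.55 in IL-10- control and 5.45 to 7.60 in IL-10- HDM cells. No T or NK cell marker was called in the averaged contrast: *Cd3g* had an adjusted p of 0.559 and *Fcer1g* one of 0.449 in limma, and *Cd2* and *Klrg1*, well above background on none of the IL-10- HDM arrays, had 0.136 and 0.519. With 1 array left out, 0 or 1 T cell markers were called (1 without IL-10- control 3) and no NK cell marker was. The part of such cells in the readings of *Prf1*, *Gzma* and *Fasl* was not tested, and fewer cells of a type and less RNA per cell cannot be told apart in these samples.

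The other marker lists gave 2 calls. *Igj* (the J chain of secreted antibodies, limma, adjusted p = 0.00454) and *Ly6c1* (limma, adjusted p = 0.0415) of the plasmablast list were called higher in IL-10+ cells (0.244% of all tested genes), with 11 of 13 genes tested and 7 higher. On IL-10- HDM arrays, *Igj* was well above background on none. With slide as a block neither was called, and with 1 array left out 1 or 2 genes of the list were called. Of the B cell identity list, *Blk*, a B cell kinase, had a log2 difference of 1.14 ± 0.32 (SE, limma, adjusted p = 0.252) and *Vpreb3* one of -0.71 ± 0.35 (SE, limma, adjusted p = 0.579). Of the macrophage list, *Emr1* had an adjusted p of 0.0891 in limma and *Cd68* one of 0.835. In the dendritic cell list *Cd209a* had an adjusted p of 0.777 and *Ly6d* one of 0.844, in the neutrophil list *Cxcr2* had 0.754 and *Elane* 0.913, and in the mast cell list *Tpsb2* had 0.628 and *Kit* 0.852, all in limma.

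The tested killer-molecule genes did not share 1 pattern over the 12 arrays. Their pairwise Pearson correlations, a description of arrays that share groups and slides, ran from -0.43 (*Tnfrsf10b* with *Serpinb9*) to 0.56 (*Gzma* with *Prf1*), with 0.47 for *Fasl* with *Tnfrsf10b* and 0.22 for *Prf1* with *Serpinb9*. Among 13708 genes searched, the pattern most like that of *Fasl* was that of *Tspan9* (r = 0.92), followed by *Esam* (0.917) and *Exosc9* (0.905). For *Gzma* these were *Cyp2j9* (0.917), *Synpo2* (0.914) and *Adat1* (0.908), and for *Prf1* *Srrt* (0.872), *Kcna7* (0.815) and *B3gat1* (0.807). For *Tnfrsf10b* they were *Igf2bp2* (0.876), *Ppap2c* (0.847) and *Arhgap24* (0.835), and for *Serpinb9* *Tagap* (0.927), *Ccdc43* (0.922) and *Psmd4* (0.917). These names depended on the processing, since 1 of the 15 was named again after normexp and quantile normalization, and 4 to 9 when 1 array was left out.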

How the data were processed

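RNA of the 12 samples was amplified as cDNA by a global PCR and hybridised in 1 colour (Cy3), per the labels' protocols. The deposited scanner files hold processed intensities from Agilent Feature Extraction 10.7.3.1, named in the file headers and in the submitters' processing notes, which had already subtracted background. The deposited series table holds a ratio, the processed signal over the array's median, found by comparison with the scanner values (largest deviation 0.00077% over 59305 spots). The deposited flags, sequences and annotation (other columns) gave detection, probes and mm9 positions.

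A level is the log2 of a processed signal divided by its array's 75th percentile, taken over gene spots. Outlier spots were left out, and spots of a probe averaged. Probes well above background on at least 3 arrays were kept, 1 probe per gene with the highest mean. A limma 3.58.1 model (R 4.3.3) of the 4 groups had 8 residual degrees of freedom, with Benjamini-Hochberg adjustment over 24963 genes and calls at adjusted p under 0.05. The script was tested on simulated data. Single genes also had an exact permutation test within control and within HDM mice. The number of arrays limits the precision. Named genes were all members, *Il10* and *Cd9*, each list's called genes or else its 2 with the smallest p in the averaged contrast, and each member's 3 most correlated genes; others are said to be chosen after their values were seen. Members and lists were chosen with earlier results of these data known. Alternatives were another scaling, normexp with quantile normalization, other filters, all probes, slide or replicate number as a block, slide 1 alone, the compared groups alone, and each array left out. Same-numbered arrays of different groups correlated at -0.142 to 0.149 in their deviations from group means.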

Additional observations from a re-analysis of the deposited data

Results flagged for a closer look

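*Fas* and *Tnfsf10* did not enter the test, yet each gave a signal on 1 array. *Fas* stood at -3.20 on IL-10- HDM 3, against at most -5.26 on the other arrays. *Tnfsf10* stood at -2.15 on IL-10- HDM 1, against at most -5.95 on the others. Both arrays were on slide 2. No other array of the same group showed either signal, and neither was tested further.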

How the results depend on the processing

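None of the 5 tested killer-molecule genes was called in any comparison under any setting run or with any 1 array left out. Of 264 values under other settings, 245 kept their sign, and of 360 with 1 array left out, 339 did. Many of these signs could not turn. Each gene has 1 probe, so other filters and the fit of all probes leave its difference unchanged. So do the compared groups alone, the balanced replicate block, and leaving out an array outside the contrast. The counts therefore do not measure how stable the signs are. Scaling by the array median adds 1 constant to every gene in a contrast (-0.33 averaged, -0.80 in HDM mice, 0.65 for HDM in IL-10- cells, -0.93 for the difference of contrasts), so the signs it turns follow from that shift and not from the genes named. They were those of *Fasl* in HDM mice (-0.23), for HDM in IL-10- cells (0.13) and for the difference of contrasts (-0.85). They were also those of *Gzma* averaged (-0.18), in HDM mice (-0.25) and for the difference of contrasts (-0.13). The same held for *Prf1* for HDM against control in the IL-10- fraction (0.44) and in the difference of contrasts (-0.11), and for *Tnfrsf10b* in HDM mice (-0.35). After normexp and quantile normalization the sign turned for the difference of contrasts of *Fasl* (-0.16), for *Gzma* averaged (-0.060) and for *Tnfrsf10b* in HDM mice (-0.065). With slide as a block the sign turned for *Gzma* in control mice (0.50, also on slide 1 alone) and for HDM in IL-10- cells (-1.19). It also turned for *Prf1* in HDM mice (0.11), for *Tnfrsf10b* (-0.35) and *Serpinb9* (-0.13) for HDM in IL-10- cells, and for the difference of contrasts of *Serpinb9* (0.073). The cause of the changes other than those of the median scaling was not tested.

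With 1 array left out, values that changed sign ranged as follows. *Fasl* ran from -0.93 to 0.39 for HDM in IL-10+ cells and from -0.41 to 0.90 for the difference of contrasts. *Gzma* ran from -0.22 to 0.52 averaged, -0.99 to 0.50 in control mice and -0.42 to 1.07 for HDM in IL-10- cells. *Prf1* ran from -0.60 to 0.072 for HDM in IL-10- cells. *Tnfrsf10b* ran from -0.16 to 0.98 in HDM mice and -0.40 to 0.75 for HDM in IL-10- cells. *Serpinb9* ran from -1.06 to 1.02 for HDM in IL-10+ cells, -0.34 to 0.85 for HDM in IL-10- cells and -1.47 to 0.61 for the difference of contrasts.

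Counts of called genes moved more. The averaged contrast, with 67, gave 26 scaled by the array median, 130 probes when all were fitted, and 0 with slide as a block. Control mice, with 4, gave 2 scaled by the median, 12 after normexp, 2 without a filter, 1 with 6 arrays required and 0 with the compared groups alone. HDM mice, with 42, gave 7 scaled by the median, 74 probes and 0 with slide as a block. HDM in IL-10+ cells, with 1, gave 0 after normexp, 0 with 6 arrays required, 2 probes, and 2 with low levels set to the background limit, a setting chosen after seeing the data. HDM in IL-10- cells, with 12, gave 6 scaled by the median, 4 after normexp, 27 probes, 0 with slide as a block and 0 with the compared groups alone. The difference of contrasts, with 3, gave 0 scaled by the median, 0 after normexp, 1 with 6 arrays required, 0 probes and 0 with slide as a block. Where no gene was called, 437 to 2444 genes or probes still had an unadjusted p under 0.05 in limma. With 1 array left out the counts ran from 31 to 139 averaged, 1 to 7 in control mice, 5 to 214 in HDM mice, 1 to 2 and 3 to 130 for HDM in IL-10+ and IL-10- cells, and 0 to 14 for the difference of contrasts. Leaving out IL-10- HDM 1 gave the highest of these counts averaged, in HDM mice, for HDM in IL-10- cells and for the difference of contrasts. Across all the fits with 1 array left out, the averaged contrast called 0 to 1 genes in each of the T cell, transcription factor and macrophage lists. Of the 15 similar genes, 1 was named again after normexp and 4 to 9 with 1 array left out.

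It is not stated if arrays with the same replicate number share an animal or culture. In their deviations from group means, same-numbered IL-10+ and IL-10- arrays correlated at 0.033 to 0.149 in control mice and 0.019 to 0.067 in HDM mice. Differently numbered ones correlated at -0.194 to 0.088 in control mice and -0.046 to 0.025 in HDM mice. Whether these arrays are pairs was not tested. With replicate number as a block, the counts were 36 averaged, 1 in control mice and 17 in HDM mice. They were 3 for HDM in IL-10- cells and 0 for the difference of contrasts. That block joins arrays of control and HDM mice under the same number. Pairs of both fractions within control or within HDM mice were not fitted. The dim probes of *Fas*, *Gzmb* and *Tnfsf10* limit those genes to bounds on nearly all arrays.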
